A study of Mus musculus with 12 samples.

Results

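The genes of the MAP kinase cascade were taken as those whose symbol in the probe annotation is Map4k, Map3k, Map2k or Mapk followed by a digit, or starts with Mapkapk. This rule found 43 genes among the 19057 genes annotated on the array, covered by 104 of its 45281 probes. A probe was kept for testing if its detection p-value, which compares the probe with the negative control beads of the array, was under 0.01 on at least 3 of the 12 arrays. Kept were 21 probes of 18 cascade genes, out of 5498 kept probes of all kinds, and 25 cascade genes had no kept probe. No measured difference between genotypes entered the rule.

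RNA of whole blood, drawn from the retro-orbital sinus, was compared between 3 wild type (WT) and 3 *Pik3cg*-/- mice on Illumina MouseWG-6 v2 bead arrays, with 2 technical arrays per mouse. *Pik3cg* encodes the catalytic subunit p110γ of phosphoinositide 3-kinase γ, which acts downstream of G protein coupled receptors in blood cells. All mice were females aged 13 to 16 weeks, kept on the Mouse Breeders Diet. The knockout line carried the allele B6J;129-Pik3cg tm1Pngr, was backcrossed to C57BL/6J Jax and then bred as a closed colony. The WT mice were C57BL/6J Jax and are not described as littermates of that line. Genotype can therefore not be told apart from colony in these data. Mice are named A to C within a genotype. The labels do not say that a letter shared between genotypes names a pair, and the mice were compared as unpaired.

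A MAP kinase cascade is a relay of protein kinases in which each tier phosphorylates and activates the next. MAP4 kinases and small GTPases act on MAP3 kinases, these act on the dual-specificity MAP2 kinases, and these switch on the MAP kinases proper, the ERK, JNK and p38 families. In blood cells the relay carries signals from antigen, cytokine, Toll-like and G protein coupled receptors, and in platelets p38 and ERK are activated by agonists such as thrombin and collagen. The cascade is controlled mainly by phosphorylation, and the arrays measured mRNA alone.

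The arrays gave no check of the genotype. Of 2 *Pik3cg* probes, ILMN_2564205 was undetected on every array, and ILMN_1227086 was detected on 2 of 6 WT and 2 of 6 *Pik3cg*-/- arrays, with log2 intensities of 6.74, 6.92 and 7.15 in the WT mice and 7.18, 7.45 and 6.96 in the *Pik3cg*-/- mice (limma adjusted p = 0.469). Whether either probe lies in the deleted part is not stated. The WT arrays detected 4648 to 4995 probes each and the *Pik3cg*-/- arrays 3558 to 5511, with mouse C lowest at 3558 and 3696. Whole blood was recognisable from its markers, since 11 of 12 platelet, 4 of 6 red cell and 7 of 9 neutrophil marker genes had a kept probe.

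The 18 cascade genes measured in blood came from every tier. The MAP4 kinases *Map4k1* and *Map4k4* had a kept probe and *Map4k5* had none. Among MAP3 kinases, *Map3k1*, *Map3k3*, *Map3k8*, *Map3k11* and *Map3k14* were kept, and *Map3k2*, *Map3k4*, *Map3k5*, *Map3k6*, *Map3k7*, *Map3k9*, *Map3k12*, *Map3k13*, *Map3k20* and *Map3k21* were not. Among MAP2 kinases, *Map2k2*, *Map2k3* and *Map2k4* were kept, and *Map2k1*, *Map2k5* and *Map2k6* were not. Of the MAP kinases, *Mapk6*, *Mapk8*, *Mapk9*, *Mapk11* and *Mapk14* were kept, and *Mapk4*, *Mapk7*, *Mapk10*, *Mapk12*, *Mapk13* and *Mapk15* were not. Both MAP kinase-activated protein kinases, *Mapkapk2* and *Mapkapk3*, were kept, as was *Mapk1ip1*, whereas the interacting protein genes *Map3k7cl*, *Mapk1ip1l*, *Mapk8ip1*, *Mapk8ip2* and *Mapk8ip3*, whose symbols the rule also takes, were not. Of the 83 probes not kept, 82 were undetected on all 12 arrays, which does not show that the transcript is absent. The other, ILMN_2723072 of *Map3k20*, was detected on 1 WT and 1 *Pik3cg*-/- array.

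None of the 21 cascade probes passed limma's moderated test between genotypes at a Benjamini-Hochberg adjusted p under 0.05, a threshold that 2.73% of all kept probes passed. At an unadjusted p under 0.05 were 8 of 21 cascade probes, or 38.1%, against 21% of all kept probes. These 8 include both *Mapk6* probes. They also include *Map2k4* ILMN_2773179, *Mapkapk2* and *Mapk8*, which reached the number of arrays set by the detection filter only in the genotype where they were higher. The count describes the list, was not tested and is no support for a difference. The cascade probes did not lean to one side, with 10 higher and 11 lower in *Pik3cg*-/- mice. Taking each gene by its brightest kept probe, the median log2 fold change over the 18 genes, *Pik3cg*-/- over WT, was 0.03, against -0.03 over the 3822 genes with a kept probe. Set against the WT mean, the median of the 18 genes was 0.22, 0.01 and -0.24 in *Pik3cg*-/- mice A, B and C, and that of all genes was 0.06, -0.03 and -0.13. The *Pik3cg*-/- mice thus differed more among themselves in this median than the genotypes did. In bulk blood, fewer cells of a type and less RNA per cell cannot be told apart.

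In 8 of the 21 cascade probes the mice of the genotypes did not overlap (38.1%), against 27.8% of all kept probes. The *Pik3cg*-/- mice all lay above the WT mice for 3 probes, those of *Map2k2*, *Mapk8* and *Mapk1ip1*, where the background is 13.4%. They all lay below for 5 probes, those of *Map2k4*, *Map3k1*, *Mapk6*, *Mapk14* and *Mapkapk2*, where the background is 14.4%. A difference of at least 1.5-fold was measured for 7 probes of 6 genes, against 14.8% of all kept probes. Of these, 2 probes were higher in *Pik3cg*-/- mice (background 6.09%) and 5 were lower (background 8.73%). Both sets of 5 lower probes hold ILMN_2773179 of *Map2k4* and the probe of *Mapkapk2*, which were undetected on every *Pik3cg*-/- array and passed the filter through WT arrays alone, so these 2 had to be lower. Both sets of higher probes hold the *Mapk8* probe, detected on 4 *Pik3cg*-/- arrays and 1 WT array. It passed the filter only because of the *Pik3cg*-/- arrays, so its place among the higher probes is no support for a difference. These counts describe the list and were not tested.

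**Figure D1:**
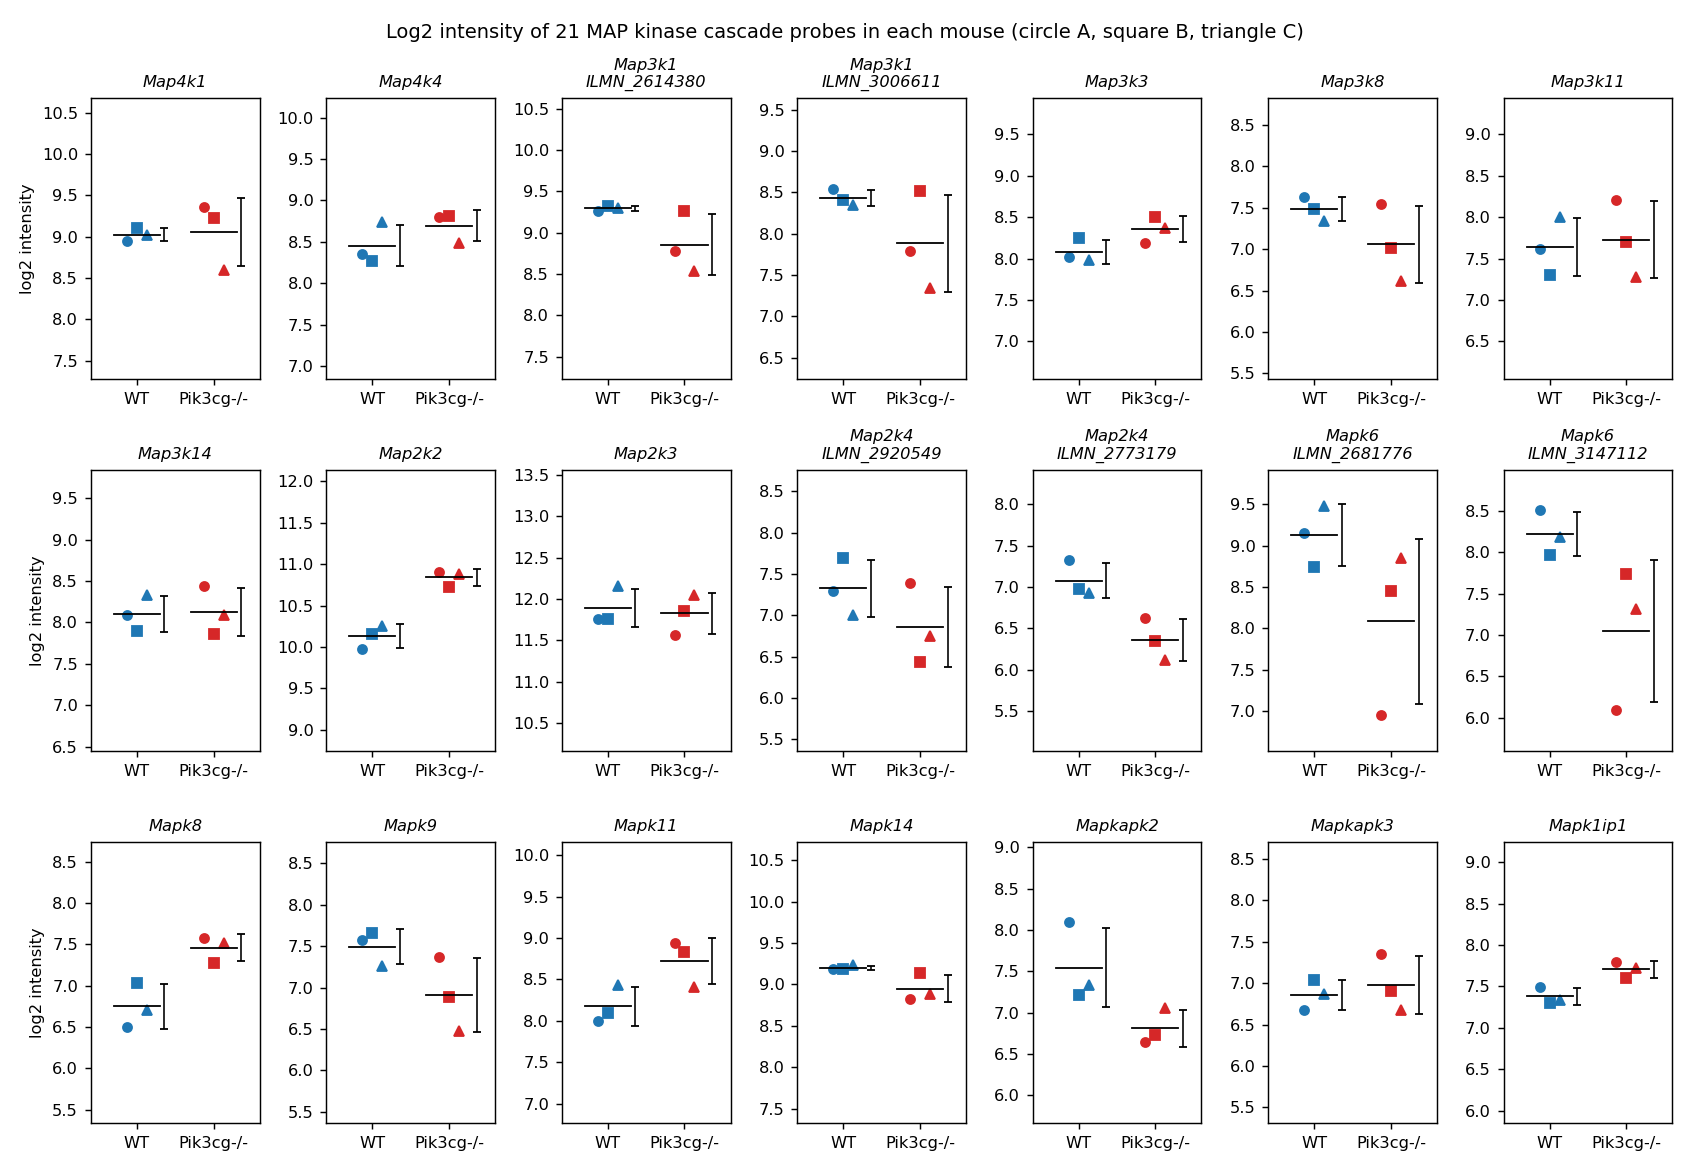
Log2 intensity (vertical axes, each spanning the same range of log2 units) of the 21 kept cascade probes in WT (blue) and *Pik3cg*-/- (red) mice. Each point is a mouse, the mean of its 2 arrays, with circles for A, squares for B and triangles for C, horizontal lines for group means and bars for the SD (n = 3). *Map2k2* shows tight groups well apart, while the *Mapk6* panels show *Pik3cg*-/- mouse A far below the other mice.

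At the top of the cascade the MAP4 kinases differed little between genotypes. *Map4k1*, whose product HPK1 restrains antigen receptor signalling in lymphocytes, was at 8.95 to 9.10 on the log2 scale in WT mice and 8.59 to 9.36 in *Pik3cg*-/- mice. *Map4k4* was at 8.27 to 8.74 and 8.49 to 8.81. Their log2 fold changes were 0.03 (95% confidence interval -0.46 to 0.53) and 0.24 (-0.19 to 0.67), so that either direction is within the intervals, and the sign for *Map4k1* turned under some settings given in the closing section. In *Pik3cg*-/- mice A, B and C *Map4k1* was at 9.36, 9.22 and 8.59. The mean over 2 B cell marker genes differed from WT by 0.30, -0.13 and -0.81 log2 units, so mouse C was lowest in both. Mouse C was also the lowest *Pik3cg*-/- mouse in T cell (-0.05), NK cell (0.07) and neutrophil (-0.38) markers and in the median of all genes. It was not the lowest in platelet, red cell or monocyte markers. A link of *Map4k1* to any cell type was not tested.

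Among MAP3 kinases the lowest values relative to WT were those of *Map3k1*, whose product MEKK1 acts mainly towards JNK. Its probe ILMN_2614380 was at 9.27, 9.33 and 9.30 in WT mice A, B and C and at 8.78, 9.26 and 8.53 in *Pik3cg*-/- mice A, B and C. The WT mice lay within a narrow band, and all *Pik3cg*-/- mice lay below it, mouse B by little. The log2 fold change was -0.44 (SE 0.20, limma adjusted p = 0.265). The probe ILMN_3006611 of the same gene was at 8.54, 8.41 and 8.34 in WT mice and 7.79, 8.51 and 7.34 in *Pik3cg*-/- mice, with a log2 fold change of -0.55 (SE 0.28, limma adjusted p = 0.297). Here too mice A and C were low and mouse B was at the WT level, so the groups overlapped. Both values depend on single mice, at -0.28 and -0.28 without *Pik3cg*-/- mouse C and -0.64 and -0.86 without mouse B, and array quality weights gave -0.19 and -0.15.

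The other MAP3 kinases overlapped between genotypes. *Map3k8*, whose product TPL2 links Toll-like receptors to the ERK branch, was at 7.35 to 7.64 in WT and 6.62 to 7.54 in *Pik3cg*-/- mice (log2 fold change -0.43, limma adjusted p = 0.337) and was detected on 5 of 6 WT and 2 of 6 *Pik3cg*-/- arrays. It was -0.21 without *Pik3cg*-/- mouse C and -0.67 without mouse A. *Map3k3*, encoding MEKK3, was at 7.98 to 8.25 and 8.19 to 8.50 (log2 fold change 0.27, limma adjusted p = 0.377). *Map3k11*, encoding the JNK pathway kinase MLK3, and *Map3k14*, encoding the kinase NIK of non-canonical NF-κB signalling, had log2 fold changes of 0.09 and 0.02, and the sign of both turned under some settings. None of these 4 genes passed the test.

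*Map2k2* had the lowest adjusted p of the cascade. Its product MEK2 is a MAP2 kinase of the ERK branch. The log2 intensity of ILMN_1258682 was 9.97, 10.16 and 10.26 in WT mice A, B and C and 10.91, 10.73 and 10.89 in *Pik3cg*-/- mice A, B and C. Every *Pik3cg*-/- mouse lay above every WT mouse, and the means were 10.13 ± 0.14 and 10.84 ± 0.10 (SD, n = 3). The fold change was 1.64, or 0.71 on the log2 scale (95% confidence interval 0.35 to 1.07), with a limma adjusted p of 0.0537, just outside the threshold. The probe was detected on all arrays, and its 2 technical arrays of a mouse differed by an SD of 0.11, among the smallest of the cascade probes. The other probe annotated to *Map2k2*, ILMN_2884050, was undetected on all arrays, so the result rests on ILMN_1258682 alone. *Map2k2* passed the threshold in 5 of 20 alternative settings, where its adjusted p ranged from 0.00515 to 0.236 and its log2 fold change from 0.61 to 0.78. The result was called or not called according to the processing, while its size changed little.

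The MAP2 kinases of the stress branches were not higher in mean in *Pik3cg*-/- mice. *Map2k3*, encoding the p38 activator MKK3, was at 11.76, 11.75 and 12.16 in WT and 11.57, 11.86 and 12.05 in *Pik3cg*-/- mice, and the groups overlapped (log2 fold change -0.06, 95% confidence interval -0.51 to 0.38). *Map2k4*, encoding MKK4, which activates JNK and p38, had 2 kept probes. ILMN_2773179 was at 7.32, 6.98 and 6.93 in WT mice and 6.62, 6.34 and 6.11 in *Pik3cg*-/- mice. All *Pik3cg*-/- mice lay below all WT mice, but the probe was detected on 3 of 6 WT arrays and on no *Pik3cg*-/- array, and against the lowest detectable signal no fold could be given. Its measured log2 fold change was -0.72 (SE 0.19, limma adjusted p = 0.0894), and without *Pik3cg*-/- mouse A it was -0.85 with a limma adjusted p of 0.0399. The second probe, ILMN_2920549, was at 7.295, 7.689 and 6.999 in WT mice and 7.39, 6.43 and 6.75 in *Pik3cg*-/- mice, overlapped because of mouse A, and had a log2 fold change of -0.47 (SE 0.28, limma adjusted p = 0.364), which ran from -0.74 without *Pik3cg*-/- mouse A to -0.26 without mouse B, and was -0.29 without WT mouse B. Both *Map2k4* probes had lower means in *Pik3cg*-/- mice and neither passed the test.

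**Figure D2:**
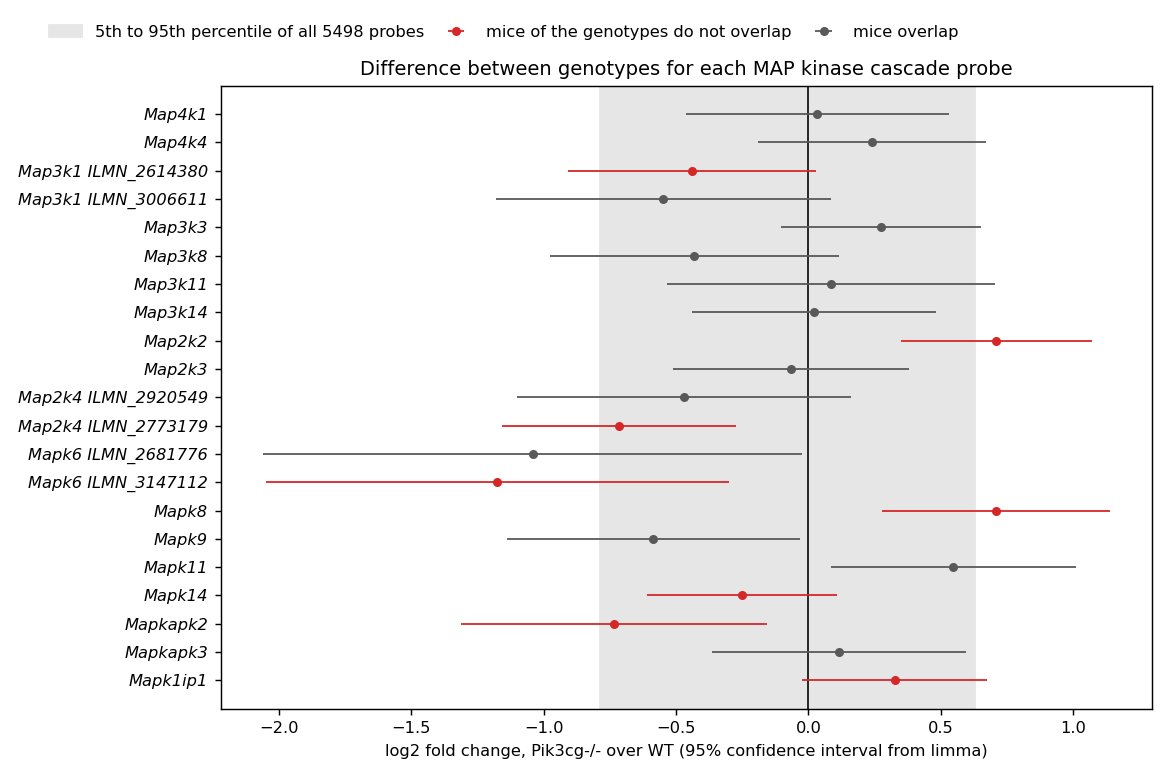
Log2 fold change, *Pik3cg*-/- over WT (horizontal axis), of each kept cascade probe, with the 95% confidence interval from limma. Red marks the 8 probes whose mice do not overlap between genotypes, and the grey band spans the 5th to 95th percentile of all 5498 kept probes, from -0.79 to 0.63. *Map2k2* and *Mapk8* lie above the band and both *Mapk6* probes below it.

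*Mapk6* had the largest measured difference of the kept cascade genes with all mice and the processing used, an order that did not hold without *Pik3cg*-/- mouse A or with the authors' log2 values. It encodes ERK3, an atypical MAP kinase that is not activated by the classical MAP2 kinases. ILMN_2681776 was at 9.16, 8.74 and 9.48 in WT mice A, B and C and at 6.95, 8.45 and 8.85 in *Pik3cg*-/- mice A, B and C. ILMN_3147112 was at 8.51, 7.97 and 8.19 in WT mice and 6.09, 7.74 and 7.31 in *Pik3cg*-/- mice. In both probes *Pik3cg*-/- mouse A was far below all other mice, and the groups were separate in the second probe alone. The log2 fold changes were -1.04 (SE 0.45, limma adjusted p = 0.228) and -1.18 (SE 0.38, limma adjusted p = 0.139). Without *Pik3cg*-/- mouse A they were -0.48 and -0.70, against -0.85 for *Map2k4* ILMN_2773179 and -0.82 for *Mapk9*. With the authors' log2 values they were -0.55 and -0.46, against 0.61 for *Map2k2*. Both probes were detected on all 6 WT arrays, and they were detected on 5 and 3 of 6 *Pik3cg*-/- arrays, so the second value is limited by background.

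*Pik3cg*-/- mouse A was also the lowest in platelet transcripts. Over the 11 platelet marker genes with a kept probe, which include *Pf4* and *Gp9*, the mean log2 difference from WT was -2.52, -0.74 and -0.59 in *Pik3cg*-/- mice A, B and C, against -0.31 to 0.27 in the WT mice. The summed intensity of these genes was 50788 to 73534 in WT and 14469 to 43165 in *Pik3cg*-/- mice. Of the 11 genes, 10 were at least 1.5-fold lower in *Pik3cg*-/- mice, against 8.73% of all kept probes. For 8 of them the *Pik3cg*-/- mice all lay below the WT mice, against 14.4% of all kept probes. None passed the test, and *Itgb3* had no kept probe. The part of platelet RNA in the *Mapk6* values was not tested. Over 4 red cell marker genes the mean difference from WT was 0.69, 0.55 and 0.85 in the *Pik3cg*-/- mice and -0.15 to 0.17 in the WT mice, the same side as *Map2k2* in every mouse of the knockout group. Summed red cell marker intensity was 116766 to 127744 in WT and 127372 to 134576 in *Pik3cg*-/- mice, and *Epb42* and *Tfrc* had no kept probe. The sum rests almost wholly on *Alas2* and *Slc4a1*, at WT means of 16.09 and 15.65, against 10.01 for *Sptb* and 7.39 for *Ank1*. Whether such bright probes could still show a rise was not tested. The 4 genes were unequal, with log2 fold changes of 1.72 for *Sptb*, which passed the test (limma adjusted p = 0.00276), 0.88 for *Ank1*, 0.19 for *Slc4a1* and -0.01 for *Alas2*. The part of red cell RNA in the *Map2k2* values was not tested either.

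**Figure D3:**
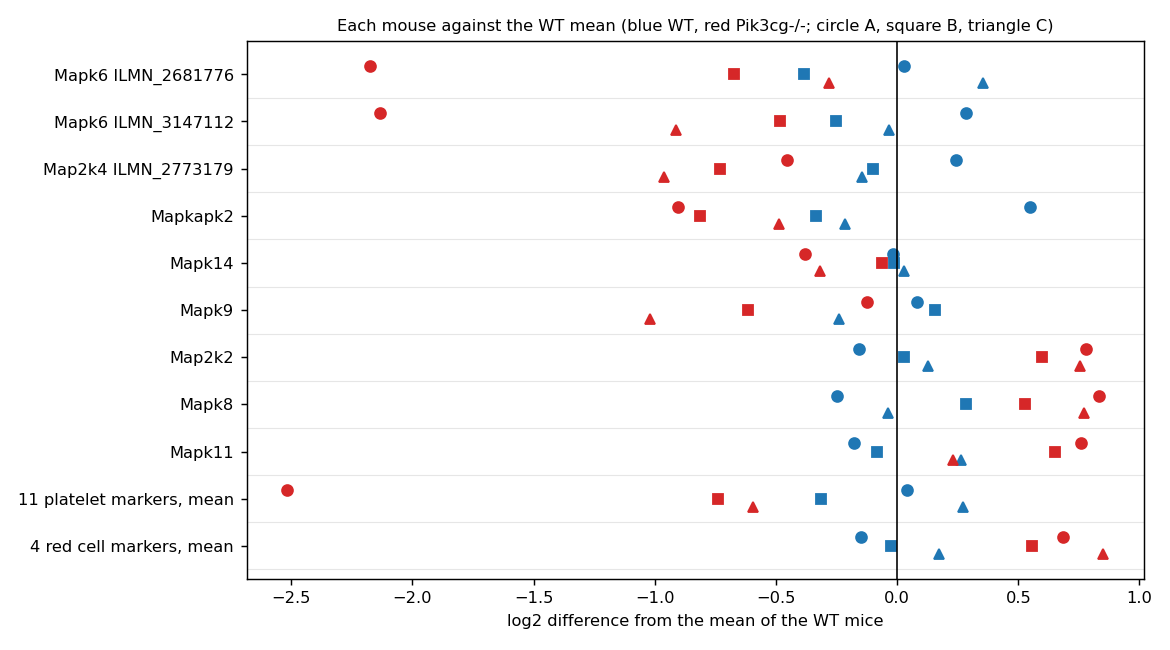
Log2 difference of each mouse from the mean of the WT mice (horizontal axis) for 9 cascade probes and for the mean of 11 platelet and 4 red cell marker genes. Blue marks WT and red *Pik3cg*-/- mice, with circles for A, squares for B and triangles for C. *Pik3cg*-/- mouse A lies below -2 for both *Mapk6* probes and at -2.52 for the platelet markers.

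The mean differences of the JNK genes had opposite signs, and neither passed the test. *Mapk8*, encoding JNK1, was at 6.50, 7.03 and 6.71 in WT mice A, B and C and at 7.58, 7.28 and 7.52 in *Pik3cg*-/- mice A, B and C. All *Pik3cg*-/- mice lay above all WT mice, with a log2 fold change of 0.71 (95% confidence interval 0.28 to 1.14, limma adjusted p = 0.0856). The signal was near background, since the probe was detected on 1 of 6 WT and 4 of 6 *Pik3cg*-/- arrays, and the other 3 probes annotated to *Mapk8* were undetected on all arrays. It was the 1 cascade probe detected more often in *Pik3cg*-/- than in WT mice. *Mapk9*, encoding JNK2, was at 7.58, 7.65 and 7.26 in WT mice and 7.37, 6.88 and 6.48 in *Pik3cg*-/- mice, where mouse A reached into the WT range. Its log2 fold change was -0.59 (SE 0.24, limma adjusted p = 0.212), with detection on 5 of 6 WT and 3 of 6 *Pik3cg*-/- arrays. It was -0.37 without *Pik3cg*-/- mouse C and -0.20 with the authors' log2 values.

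The p38 genes likewise differed from each other in sign, again with neither past the threshold. *Mapk11*, encoding p38β, was at 7.997, 8.094 and 8.439 in WT mice and 8.94, 8.83 and 8.41 in *Pik3cg*-/- mice. Mice A and B were above all WT mice and mouse C was within their range, giving a log2 fold change of 0.55 (95% confidence interval 0.08 to 1.01, limma adjusted p = 0.173). *Mapk14*, encoding p38α, the main p38 of leukocytes and platelets, was at 9.19, 9.19 and 9.23 in WT mice and 8.82, 9.14 and 8.89 in *Pik3cg*-/- mice. The groups were separate, mouse B by little, and the log2 fold change was -0.25 (95% confidence interval -0.61 to 0.11, limma adjusted p = 0.395). Both genes were detected on all arrays.

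Differences between related genes within a mouse were chosen after their values, and the opposite signs of the JNK and p38 pairs, had been seen. They are given as a description, with the mean over WT mice set to 0. For *Mapk11* minus *Mapk14* they were 1.14, 0.71 and 0.55 log2 units in *Pik3cg*-/- mice A, B and C and -0.16, -0.07 and 0.24 in WT mice. For *Mapk8* minus *Mapk9* they were 0.96, 1.14 and 1.79 in *Pik3cg*-/- mice and -0.33, 0.13 and 0.20 in WT mice. For *Map2k2* minus *Map2k3* they were 1.10, 0.63 and 0.60 in *Pik3cg*-/- mice and -0.03, 0.17 and -0.14 in WT mice. The *Pik3cg*-/- mice lay above the WT mice in each pair, which the choice of the pairs makes likely and which is no support for a difference.

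The kinases below p38 were dim. *Mapkapk2*, encoding MK2, which stabilises cytokine mRNAs, was at 8.10, 7.21 and 7.33 in WT mice and 6.64, 6.73 and 7.06 in *Pik3cg*-/- mice. The groups were separate, with WT mouse A well above the other WT mice. The probe was detected on all 6 WT arrays and on no *Pik3cg*-/- array, so that its level in *Pik3cg*-/- mice has only an upper bound, at least 1.20-fold lower with all WT mice. It rests on WT mouse A, since without that mouse the ratio was 0.994, which gives no fold, and the measured log2 fold change was -0.46. The bound sets the WT mean against, on each *Pik3cg*-/- array, the higher of the lowest signal among detected probes and the probe's own signal, and the limma adjusted p of the measured difference, -0.73 on the log2 scale, was 0.154. Over 3 monocyte marker genes the mean log2 difference from WT was 0.51, 0.0045 and -0.52 in the WT mice and -0.30, -0.57 and -0.38 in the *Pik3cg*-/- mice. WT mouse A was highest in these markers as for *Mapkapk2*. *Pik3cg*-/- mouse A was the highest of its group in the markers but the lowest for *Mapkapk2*. The markers were unequal, with log2 fold changes of -0.89 for *Lyz2*, -0.36 for *Ctss* and -0.0015 for *Csf1r*. Their part in the *Mapkapk2* values was not tested. *Mapkapk3*, encoding the related MK3, was at 6.68 to 7.04 in WT and 6.67 to 7.35 in *Pik3cg*-/- mice, detected on 2 and 1 of 6 arrays, with a log2 fold change of 0.12 (95% confidence interval -0.36 to 0.60) whose sign turned under some settings. *Mapk1ip1* was at 7.50, 7.30 and 7.34 in WT mice and 7.80, 7.60 and 7.72 in *Pik3cg*-/- mice, separate groups with a log2 fold change of 0.33 (SE 0.15, limma adjusted p = 0.266).

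Detection of the cascade differed between the arrays. The WT arrays detected 16 to 20 of the 21 kept cascade probes, and the *Pik3cg*-/- arrays detected 17 and 17 in mouse A, 14 and 16 in mouse B and 12 and 12 in mouse C. Detected on all 12 arrays were 9 of the 21 probes. Of the 21 probes, 11 were more often detected on WT arrays, 1 more often on *Pik3cg*-/- arrays, and 9 as often on both. Among all kept probes, 34.3% were more often detected on WT arrays. *Map2k4* ILMN_2773179, *Mapkapk2*, *Map3k8* and *Mapk9*, all lower in mean in *Pik3cg*-/- mice, were among the 11. Both *Map2k4* probes, *Mapkapk2* and *Map3k8* reached the 3 arrays of the filter in WT mice but not in *Pik3cg*-/- mice. *Mapk8* reached them in *Pik3cg*-/- mice but not in WT mice. The filter thus set the side of these probes in the count, which is no support for a difference. The part of array sensitivity in these differences was not tested.

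Other genes of the pathway were counted by function, and none of their kept probes passed the test. Of 13 small GTPases, exchange factors and Raf kinases, 8 had a kept probe, with a median log2 fold change of -0.10 and individual values of -0.48 for *Rap1b*, a GTPase of platelet integrin activation, -0.27 for *Nras* and 0.51 for *Rac2*, the blood cell Rac. Of 23 scaffolds and inhibitors 9 were kept, with a median of -0.12 and values of -0.41 for *Gadd45a*, -0.42 for *Iqgap1* and -0.38 for *Tab3*. Of 14 phosphatases 7 were kept, with a median of -0.01 and values of 0.33 for *Dusp1*, the dual-specificity phosphatase MKP-1, -0.25 for *Ppp2ca* and -0.11 for *Ppm1b*. These medians lay within 0.1 log2 units of the median of all genes.

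Both lists below the MAP kinases had positive medians, that of the first resting on 2 genes. The cascade kinases below p38, *Mapkapk2* and *Mapkapk3*, were at -0.73 and 0.12. *Mknk1* and *Mknk2*, whose products phosphorylate the translation factor eIF4E, were the kept genes of 4 kinases activated by MAP kinases, with log2 fold changes of 0.59 (limma adjusted p = 0.123) and 0.27 (limma adjusted p = 0.398). Of 22 nuclear targets 8 were kept, with a median of 0.22 and values of -0.38 for the immediate early gene *Fos*, -0.37 for *Elk4* and 0.31 for *Atf2*. The genes with positive values include *Egr1*, *Egr3* and *Ier3*, which were near background. They were detected on 2, 2 and 2 of 6 WT arrays and on 2, 2 and 1 of 6 *Pik3cg*-/- arrays. The *Pik3cg*-/- mice all lay above the WT mice for *Rac2*, *Mknk1* and *Atf2*, and all below for *Nras*, *Tab3*, *Dusp16* and *Fos*. Above and below were 1 and 1 of 8 GTPase and Raf genes, 0 and 1 of 9 scaffolds and inhibitors, and 0 and 1 of 7 phosphatases. They were 1 and 0 of 2 kinases activated by MAP kinases and 1 and 1 of 8 nuclear targets. Among all kept probes 13.4% lay above and 14.4% below. *Dusp16*, whose product MKP-7 acts on JNK, is named after its values were seen and had a log2 fold change of -0.69 (limma adjusted p = 0.148), with detection on all 6 WT arrays and on no *Pik3cg*-/- array. It passed the filter through WT arrays alone, so it had to be lower.

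Which cascade probes passed the test depended on the setting. Counts of called probes ranged from 0 to 3 of 21 over 20 alternative settings. *Map2k2* was called in 5 of them, *Map2k4* ILMN_2773179 in 3 of 19, and *Mapk6* ILMN_3147112 and *Mapk11* in 1 each. The standard errors of the 21 log2 fold changes ran from 0.15 to 0.45. With 3 mice per genotype, differences several times their standard error could miss the threshold. *Map2k2*, with a log2 fold change of 0.71 and an SE of 0.16, did so.

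**Figure D4:**
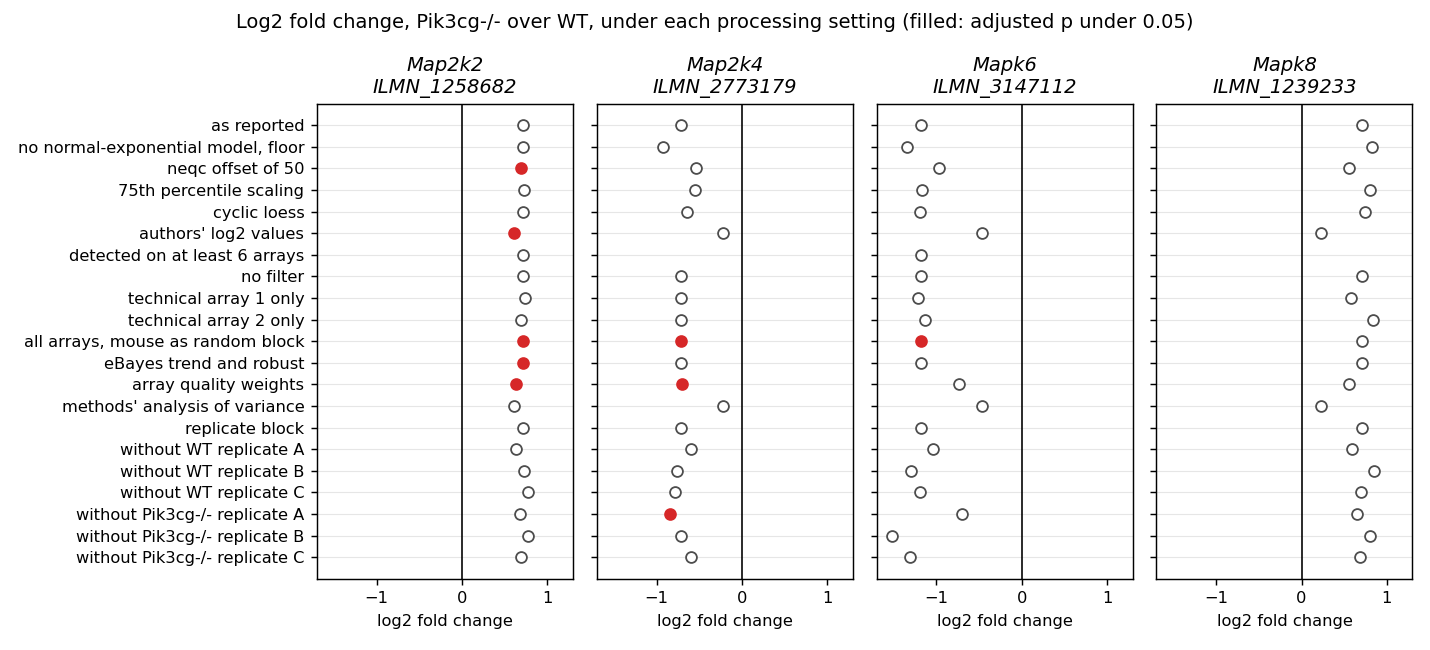
Log2 fold change, *Pik3cg*-/- over WT (horizontal axes), of 4 cascade probes under each processing setting (vertical axis). Filled points have an adjusted p under 0.05, and a missing point means that the probe was filtered out. *Map2k2* stays between 0.61 and 0.78, and *Mapk6* ILMN_3147112 runs from -1.52 to -0.46.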

How the data were processed

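Per the labels, samples were grouped by genotype. The deposited intensity values are average bead signals of each probe and array with the authors' detection p-values. The authors also deposited log2 values of each array after background subtraction, variance stabilization and quantile normalization with lumi, and these were used as an alternative. Probe symbols came from the platform annotation, in which 34885 probes had 1 symbol, 18 several and 10378 none. Intensities were normalized with neqc of limma 3.58.1 (R 4.3.3, offset 16), which fits the background from detection p-values, adds the offset and quantile-normalizes on the log2 scale. The 2 arrays of a mouse were averaged, and genotypes were compared with lmFit and eBayes (two-sided), with Benjamini-Hochberg adjustment over 5498 probes. The model was tested on simulated data. The number of mice, 3 per genotype, limits the precision. An exact permutation test of 3 against 3 mice cannot go below p = 0.1 and was not used. Members and lists were chosen with earlier results of these data known. Named with values per mouse were members called, separate between genotypes or at least 1.5-fold different, and in pathway lists the 3 brightest genes. *Map2k3*, *Mapk11* and *Map4k1* fall outside this rule and were given per mouse after their values were seen.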

Additional observations from a re-analysis of the deposited data

How the results depend on the processing

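The count of called cascade probes was 0 of 21 as reported. It was 1 with a neqc offset of 50, 1 with the authors' log2 values and 1 with a trended, robust eBayes, each time *Map2k2* (limma adjusted p = 0.0382, 0.0164 and 0.0299). It was 3 with all arrays and the mouse as a random block (*Map2k2*, *Map2k4*, *Mapk6*) and 3 with array quality weights (*Map2k2*, *Map2k4*, *Mapk11*), which were estimated gene by gene because the planned estimate did not converge. Leaving out 1 mouse gave 0 to 1, the 1 being *Map2k4* without *Pik3cg*-/- mouse A. The cause of these changes was not tested. Every other setting gave 0, among them the methods' analysis of variance on the authors' values after Benjamini-Hochberg adjustment. Without adjustment that analysis put 4 cascade probes at p under 0.05, of which 1, *Map2k2* (1.53-fold), was also at least 1.5-fold different. With the authors' values 18 of 21 differences were smaller by over 1.5 times. Over all probes the calls were 150 as reported and 3 with that analysis, 86 with no filter, 83 with technical array 1, 471 with the random block, 259 with the trended eBayes, 596 with weights and 40 to 344 without 1 mouse. The median over the cascade genes, 0.03 as reported, moved by less than the SD between mice, 0.16, but its sign turned. It was -0.12 without *Pik3cg*-/- mouse A, -0.08 without WT mouse B and 0.15 without *Pik3cg*-/- mouse C. With technical array 2 it was -0.06, and with detection on at least 6 arrays -0.02.

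Signs turned for 5 genes with small differences. *Map2k3* was at 0.00296 with technical array 1 and -0.178 to 0.0693 without 1 mouse. *Map3k11* was at -0.0353 with technical array 1 and -0.153 to 0.313 without 1 mouse. *Map3k14* was at -0.111 with array weights and -0.131 to 0.158 without 1 mouse. *Map4k1* was at -0.115 with technical array 2 and -0.116 to 0.266 without 1 mouse, and *Mapkapk3* at -0.0153 and -0.0714 to 0.269. Deviations of same-lettered mice correlated at 0.18, -0.18 and 0.18, and 3 of 6 mice correlated best with their own letter. With so few mice these values cannot settle whether the letters name pairs. With the letter as a replicate block, 0 cascade probes and 111 of all probes were called.

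Signal over background limits the probes of *Mapk8*, *Mapk9*, *Mapkapk2*, *Mapkapk3*, *Map3k8* and *Map2k4* and ILMN_3147112 of *Mapk6*, each undetected on several arrays. With 3 mice per genotype, 1 knockout colony and mixed blood cells, differences of the size of the standard errors were not detectable.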
